A study of Mus musculus with 6 samples.

Results

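The 10 genes described here make up most of the epidermal growth factor (EGF) receptor system of the mouse: 6 ligand genes (Ereg, Hbegf, Areg, Tgfa, Btc and Nrg1), 3 receptor genes (Egfr, Erbb2 and Erbb4) and 1 inhibitor gene, Errfi1. They were taken by symbol from 54532 gene IDs in a table of messenger RNA levels, and all 10 were found once. RNA came from primary cardiomyocytes of neonatal mouse heart, infected on day 3 after isolation with adenovirus. The control group received virus encoding GFP (AdGFP, Rit1 +/+ on the labels) and the other group received virus encoding GFP and Cre recombinase (AdCre, Rit1 M90I/+ on the labels), with 3 biological replicates each. All mice carried an engineered Rit1 locus at which Cre turns on M90I, a Noonan syndrome variant of the RAS-related GTPase RIT1. No wild-type culture received Cre here, and effects of the recombinase and of the variant cannot be told apart. The promoter of the viral constructs is not given in the sources used here, and cells were plated at about 1 heart per well. Replicates carry the numbers 1 to 3 on either side, with no word on what a number stands for, and p-values measure the spread between these samples.

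EGF receptors are tyrosine kinases of the cell surface that work in pairs and feed the RAS-RAF-MEK-ERK cascade. Their ligands are made as membrane-bound precursors and are cut loose by metalloproteases such as ADAM17. In the heart, neuregulin 1 from endothelial cells acts on the myocyte receptors ERBB4 and ERBB2, a signal that the developing ventricle needs, and HB-EGF acts in valve formation and hypertrophy. Several ligand genes and Errfi1 are themselves induced by ERK signaling, the former as a forward loop and the latter as a brake on the receptors. Setting AdCre beside AdGFP asks which of these transcripts differ when RIT1 M90I is expressed.

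Levels are given in FPKM (fragments per kilobase of exon, scaled by depth), so that genes can be compared per length. In AdGFP cultures the order of mean levels was Hbegf (45.5 FPKM), Errfi1 (23.4), Erbb2 (8.98), Egfr (5.28), Ereg (3.88), Tgfa (3.29), Nrg1 (3.03), Erbb4 (1.82), Areg (0.564) and Btc (0.175). Neighbours in this order had overlapping ranges, except that Errfi1 stood apart from Erbb2, Erbb4 from Areg, and Areg from Btc. In AdCre cultures the order was Hbegf (51.1 FPKM), Errfi1 (46.2), Erbb2 (9.28), Ereg (8.33), Tgfa (5.08), Egfr (4.8), Nrg1 (3.01), Areg (1.05), Erbb4 (0.886) and Btc (0.368). There the ranges of neighbours did not overlap between Errfi1 and Erbb2, Ereg and Tgfa, Nrg1 and Areg, or Erbb4 and Btc. Ereg did not overlap Egfr in AdCre, where it was higher. In AdGFP they overlapped, and the higher mean of Egfr came from replicate 3, at 8.69 FPKM against 3.13 and 4.01 in the others. Reads worked back from the values ranged from 9 for Areg to about 9804 for Hbegf in a single sample, and library totals ranged from 25.28 to 32.43 M reads.

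**Figure D1:**
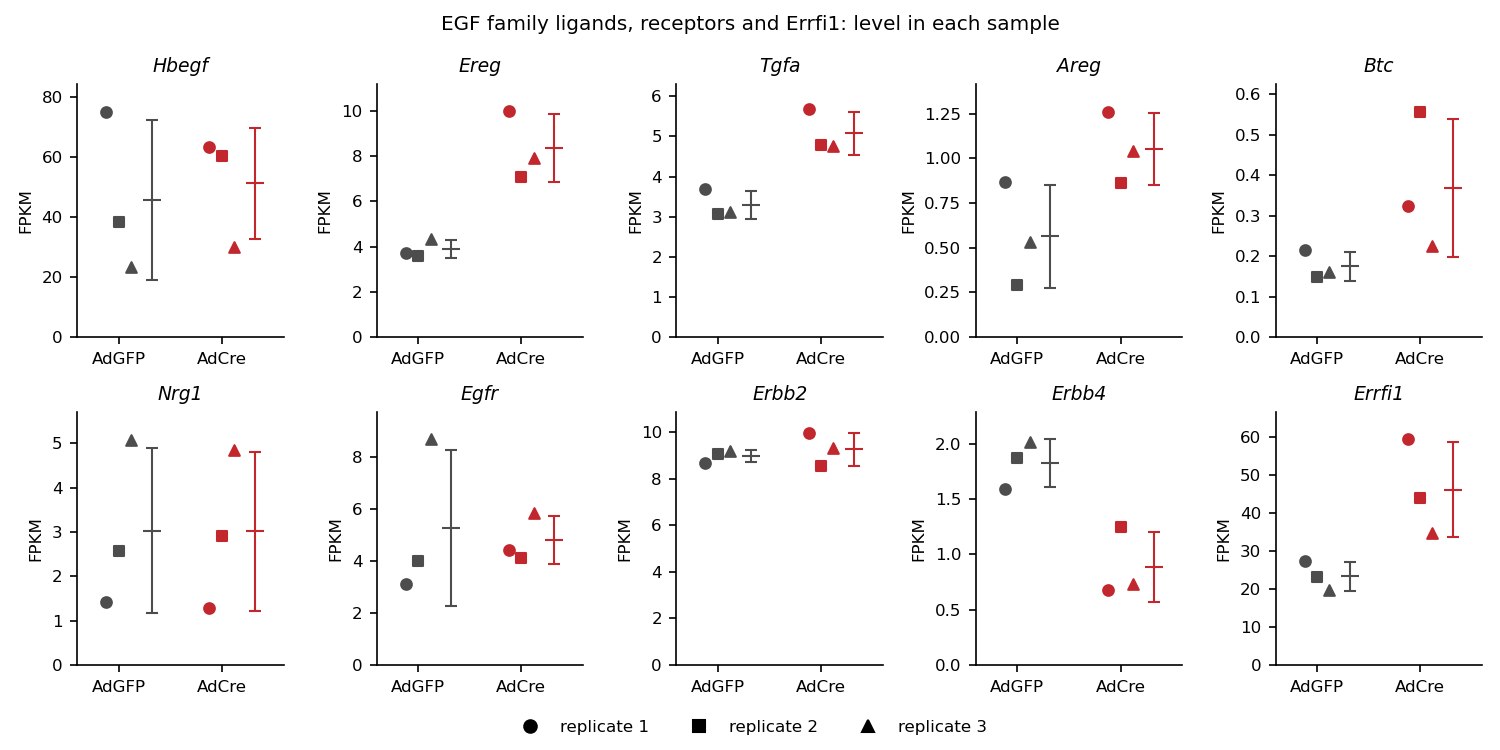
Level in FPKM (vertical axes, linear from 0) of the 10 genes in the 3 AdGFP (grey) and 3 AdCre (red) samples; symbols give the replicate number, and the bar beside them is the mean ± SD. Every AdCre sample lies above every AdGFP sample for Ereg, Tgfa, Btc and Errfi1, and below for Erbb4, while Hbegf and Nrg1 spread widely within both groups, in the same order of replicate numbers.

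Of the 10 genes, 9 had a mean of at least 0.5 FPKM and were tested with limma on log2(FPKM + 0.1) across 13794 genes, and Btc was too low. None of the 9 had an adjusted p under 0.05 without regard to the replicate number, against 0.00725% of all genes tested, and 4 of them (Ereg, Tgfa, Errfi1 and Erbb4) had an unadjusted p under 0.05, against 10.2% of all genes. A count model on the recovered reads (limma voom) called 0 of the 9 and 0 of all 13794 genes. In it 5 of the 9 had an unadjusted p under 0.05, as did 1449 of all 13794 genes. Same-numbered samples deviated from their group means together across genes, so the number was also fitted as a block. With the block 3 of the 9 passed, Ereg, Tgfa and Errfi1, all as higher, where 6.15% of all genes passed, 2.64% as higher and 3.51% as lower. Only Errfi1 passed without pair 2 and 0 of the 9 without pair 3, where calls over all genes went from 848 to 149 and 1. The log2 fold changes of Ereg, Tgfa and Errfi1 were then 1.12, 0.60 and 0.97 without pair 2 and 1.18, 0.62 and 1.03 without pair 3, beside 1.07, 0.61 and 0.96 with all pairs. With the block but without the filter on low genes, or without the trend in the variance, 0 of them passed. In each of these fits 5 of them had an unadjusted p under 0.05, as did 4199 of 28445 genes without the filter and 3122 of 13794 without the trend. Without overlap of the groups, 3 of the 9 (the same 3) were higher and 1 (Erbb4) was lower in AdCre, where 7.36% and 8.02% of all genes tested did so. In all 3 pairs 4 of the 9 were higher and 1 was lower, against 23.9% and 24.5% of all genes. The median log2 fold change of all genes tested was -0.002, and 0.058 with library size from recovered reads.

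**Figure D2:**
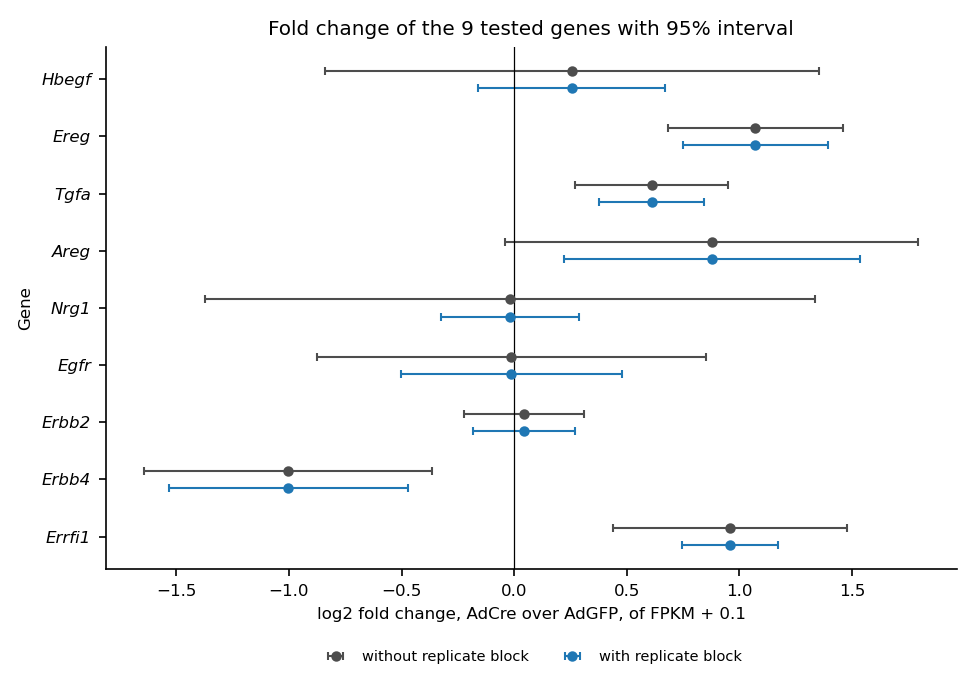
log2 fold change of FPKM + 0.1 in AdCre over AdGFP (horizontal axis) for the 9 tested genes, with the 95% interval from limma, without the replicate block (grey) and with it (blue). With the block the intervals of Ereg, Tgfa, Areg and Errfi1 lie above 0, that of Erbb4 lies below 0, and the other 4 include 0.

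Ereg encodes epiregulin, a ligand of EGFR and ERBB4. Its level was 3.72, 3.58 and 4.34 FPKM in AdGFP replicates 1 to 3 and 10.0, 7.09 and 7.9 FPKM in AdCre replicates 1 to 3. The highest AdGFP value was well under the lowest AdCre value, and the AdGFP samples lay close together. The mean went from 3.88 ± 0.405 to 8.33 ± 1.5 FPKM (SD, n = 3 each), or 1.07 ± 0.16 (SE) as a log2 fold change. The limma adjusted p was 0.122, and 0.0194 with the block. Differences within pairs 1 to 3 were 1.40, 0.97 and 0.85 on the log2 scale.

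Tgfa encodes transforming growth factor alpha, a ligand of EGFR alone. It was at 3.7, 3.06 and 3.11 FPKM in AdGFP and at 5.69, 4.78 and 4.76 FPKM in AdCre replicates 1 to 3. Replicate 1 was the highest of its group on both sides, and the groups did not overlap. The mean went from 3.29 ± 0.353 to 5.08 ± 0.529 FPKM (SD, n = 3 each), or 0.61 ± 0.14 (SE) as a log2 fold change, with a limma adjusted p of 0.262 without and 0.029 with the block. The differences within the pairs were nearly equal, at 0.61, 0.63 and 0.60 on the log2 scale.

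Areg encodes amphiregulin, a low-affinity ligand of EGFR, and its transcript was rare. Its level was 0.866, 0.292 and 0.534 FPKM in AdGFP, on 26, 9 and 16 reads, and 1.26, 0.861 and 1.04 FPKM in AdCre, on 49, 27 and 35 reads. It was higher in AdCre in each of the 3 pairs, but AdCre replicate 2 was just under AdGFP replicate 1, so the groups overlapped. AdCre differed from AdGFP by 0.88 ± 0.39 (SE) on the log2 scale (limma adjusted p 0.513, and 0.116 with the block), and this was 0.40 with a pseudocount of 1. Btc, which encodes betacellulin, a ligand of EGFR and ERBB4, was rarer still. It was at 0.215, 0.148 and 0.162 FPKM in AdGFP and at 0.325, 0.557 and 0.224 FPKM in AdCre, on 17 to 65 reads. The lowest AdCre and highest AdGFP samples nearly touched, and without a filter on low genes the limma adjusted p was 0.729 without and 0.472 with the block.

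Hbegf encodes HB-EGF, a ligand of EGFR and ERBB4, and had the highest mean of the 10 genes in both groups. It was at 75.0, 38.3 and 23.4 FPKM in AdGFP and at 63.3, 60.2 and 29.9 FPKM in AdCre replicates 1 to 3. The spread within each group exceeded the difference between them, with replicate 1 the highest and replicate 3 the lowest on both sides. The mean was 45.5 ± 26.6 in AdGFP and 51.1 ± 18.5 FPKM in AdCre (SD, n = 3 each). On the log2 scale AdCre was at 0.25 relative to AdGFP, with a 95% interval from -0.84 to 1.35 (limma adjusted p 0.917), or from -0.16 to 0.67 with the block (0.409). Without pair 1, the only pair in which it was lower in AdCre, the log2 fold change was 0.50 and the blocked limma adjusted p 0.0497. It was 0.06 without pair 2 (0.892) and -0.14 without AdGFP replicate 3. Hbegf made up between 63.8% and 88.3% of the summed FPKM of the 6 ligands in AdGFP and between 61.4% and 78.8% in AdCre. All 6 ligands summed to between 36.6 and 85.0 FPKM in AdGFP and to between 48.7 and 81.9 FPKM in AdCre, with overlap. The other 5 ligands without Hbegf summed to between 9.66 and 13.2 FPKM in AdGFP and to between 16.2 and 18.8 FPKM in AdCre, without overlap.

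Nrg1 encodes neuregulin 1, the ligand of ERBB3 and ERBB4 that EGFR does not bind. It was at 1.43, 2.58 and 5.08 FPKM in AdGFP and at 1.28, 2.9 and 4.85 FPKM in AdCre replicates 1 to 3. Same-numbered samples were close and the numbers stood far apart, in the reverse order of Hbegf. The log2 fold change was -0.02, with a 95% interval from -1.37 to 1.34 (limma adjusted p 0.998) that the block narrowed to between -0.32 and 0.29 (0.95). Marker transcripts of several cell types also differed by number. The summed level of 10 macrophage markers was 52.9 and 93.9 FPKM in AdGFP and AdCre replicates 1, against 294 and 371 in replicates 3. That of 11 fibroblast markers was 2980 and 2750 against 5640 and 4190 FPKM. For 12 endothelial markers it was 104 and 148 against 157 and 217 FPKM. The sum of 12 cardiomyocyte markers went the other way, with 7630 and 5030 against 4600 and 2940 FPKM. The part of these cell types in the levels of Nrg1 and Hbegf was not tested.

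4 EGF ligand genes lie side by side on chromosome 5 (GRCm38, GENCODE M21). Epgn (91027464 to 91035215), Ereg (91074622 to 91093646) and Areg (91139599 to 91148432) are on the plus strand and Btc (91357261 to 91402994) is on the minus strand, all within 376 kb. The gap is 39.4 kb from Epgn to Ereg, 46.0 kb from Ereg to Areg and 209 kb from Areg to Btc. The levels of the neighbours differed: Ereg was several times above Areg in every sample, by 4.3-fold to 12.3-fold in AdGFP and by 7.59-fold to 8.24-fold in AdCre. Epgn, which encodes epigen, had 2, 1 and 0 reads in AdGFP and 10, 0 and 1 in AdCre, and no change was detectable at this depth. An antisense gene, Gm19610 (91051871 to 91074773, minus strand), overlaps the start of Ereg and runs away from it. Gm19610, singled out after its values were seen, was at 3.27, 3.58 and 3.38 FPKM in AdGFP and at 4.82, 4.08 and 4.78 FPKM in AdCre, without overlap of the groups. Its log2 fold change was 0.41 (limma adjusted p 0.365, and 0.102 with the block). Exons of Gm19610 cover 3.42% of the exon bases of Ereg, and reads of the overlap cannot be assigned because the use of strand in counting is not stated.

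**Figure D3:**
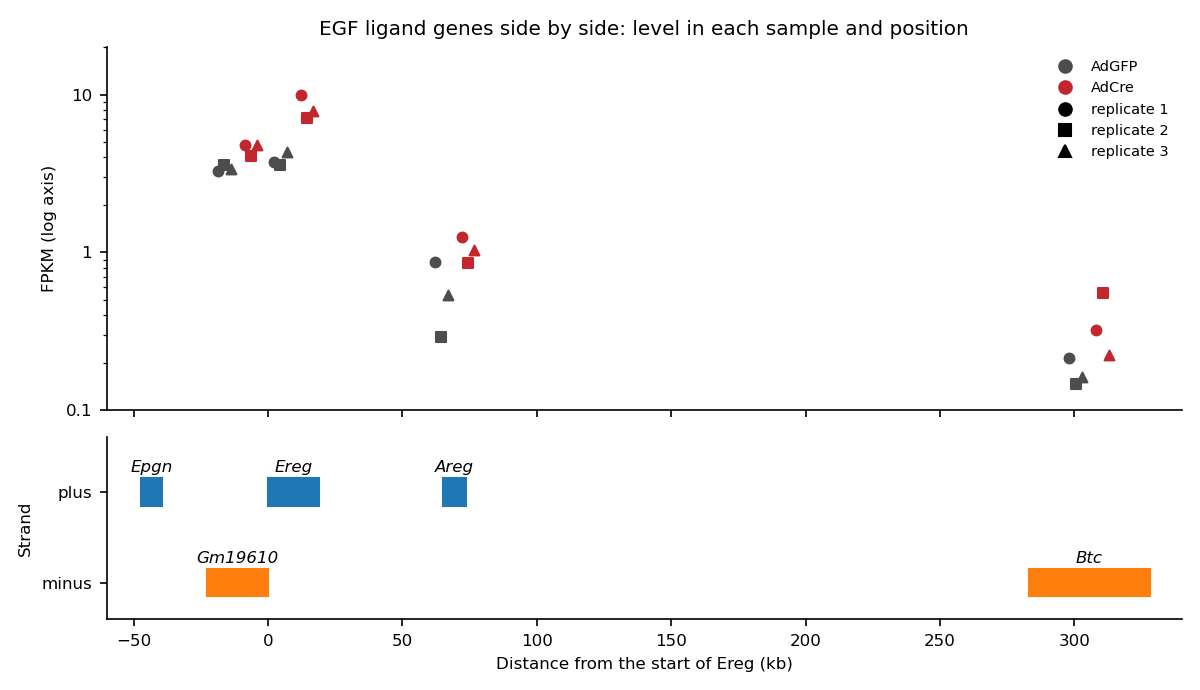
Upper panel, level in FPKM (log axis) of Gm19610, Ereg, Areg and Btc in the 3 AdGFP (grey) and 3 AdCre (red) samples, placed at each gene; lower panel, the genes as boxes by strand, against distance from the start of Ereg in kb. Epgn, at 0.173 FPKM or less in every sample, is drawn only as a box; Ereg is the most abundant of the 4 ligands in every sample.

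Among the receptors, Erbb4 encodes the neuregulin receptor of cardiomyocytes. It was at 1.59, 1.87 and 2.02 FPKM in AdGFP and at 0.675, 1.25 and 0.736 FPKM in AdCre replicates 1 to 3. All AdCre samples were lower, with AdCre replicate 2 the nearest to the controls. The mean went from 1.82 ± 0.217 to 0.886 ± 0.314 FPKM (SD, n = 3 each), on 252 to 614 reads per sample. AdCre differed from AdGFP by -1.0 ± 0.27 (SE) on the log2 scale (limma adjusted p 0.312), and the gene did not pass with the block either (0.0545). The 95% interval lay below 0 in both fits, from -1.64 to -0.37 and, blocked, from -1.53 to -0.47. The log2 fold change was -0.59 with a pseudocount of 1. Of 10 fits with the block only 1 called Erbb4, the count model (limma voom adjusted p 0.00521). That fit called 1703 of all 13794 genes.

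Cardiomyocyte markers were lower beside Erbb4. All 12 markers of that list were tested and had a negative log2 fold change, with a median of -0.75 and a range from -1.3 to -0.22. None passed without the block (6 at an unadjusted p under 0.05) and 8 passed with it, all as lower, where 10.2% of all genes had an unadjusted p under 0.05 and 3.51% passed with the block as lower. Their summed level was between 4600 and 7630 FPKM in AdGFP and between 2940 and 5030 FPKM in AdCre, none being at 0. 3 of the 12 were at or below the log2 fold change of Erbb4, namely Pln (-1.3), Myl2 (-1.12) and Actn2 (-1.05). Among AdCre samples Erbb4 was highest in replicate 2, as were 8 of the 12 markers, for example Ttn (6.11 against 2.5 and 2.03 FPKM) and Pln (69.3 against 35.8 and 37.3). The other 4 (Myl2, Myl7, Nkx2-5 and Nppa) were highest in replicate 1. So was the sum over the list, at 5030, 4040 and 2940 FPKM in AdCre replicates 1 to 3. In AdGFP replicates 1 to 3 Erbb4 rose (1.59, 1.87 and 2.02 FPKM), while the sum over the list fell (7630, 6200 and 4600 FPKM). Fewer myocytes and less RNA per myocyte cannot be told apart in such bulk samples, and the part of either in the level of Erbb4 was not tested.

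Erbb2 encodes the co-receptor that binds no ligand itself and was the most even of the 10 genes. It was at 8.68, 9.05 and 9.21 FPKM in AdGFP and at 9.97, 8.55 and 9.31 FPKM in AdCre, with overlap. The log2 fold change was 0.04 with a 95% interval from -0.22 to 0.31 (limma adjusted p 0.948), or from -0.18 to 0.27 with the block (0.811). Egfr encodes the EGF receptor proper. It was at 3.13, 4.01 and 8.69 FPKM in AdGFP and at 4.42, 4.13 and 5.85 FPKM in AdCre replicates 1 to 3. AdGFP replicate 3 stood well above the rest, and the differences within pairs 1 to 3 were 0.48, 0.04 and -0.56 on the log2 scale. The log2 fold change was -0.01, with a 95% interval from -0.87 to 0.85 (limma adjusted p 0.998), or from -0.50 to 0.48 with the block (0.981). Without AdGFP replicate 3 it was 0.41, and without AdGFP replicate 1 it was -0.31. The share of Erbb4 in the summed FPKM of the 3 receptors was 11.9%, 12.5% and 10.1% in AdGFP and 4.48%, 8.95% and 4.63% in AdCre, with no overlap, whereas the shares of Egfr and Erbb2 overlapped.

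Errfi1 encodes MIG6, a cytoplasmic protein that binds active EGF receptors, blocks their kinase and promotes their degradation. It was at 27.3, 23.1 and 19.7 FPKM in AdGFP and at 59.7, 44.1 and 34.9 FPKM in AdCre replicates 1 to 3. In both groups replicate 1 was the highest and replicate 3 the lowest, and every AdCre sample exceeded every AdGFP sample. The mean went from 23.4 ± 3.8 to 46.2 ± 12.5 FPKM (SD, n = 3 each), on 1743 to 6848 reads per sample. AdCre differed from AdGFP by 0.96 ± 0.22 (SE) on the log2 scale (limma adjusted p 0.261), and the block reduced the standard error to 0.09 (adjusted p 0.0119). The differences within pairs were 1.12, 0.93 and 0.82.

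From a table of RefSeq promoters (GRCm38.p6, 250 bases before to 50 after a start site), 8 promoters of 7 of the genes were used. Errfi1 was present at 2 starts. Promoters of Ereg, Hbegf and Nrg1 were not used. The 8 promoters were searched on both strands for motifs of factors that act downstream of ERK or of cAMP. These were the cAMP response element TGACGTCA, the AP-1 site TGANTCA, the ETS site CCGGAAG and the EGR site GCGTGGGCG. The CArG box of serum response factor was searched as well. TGACGTCA was found in 2 of the 7 genes, in 1 Errfi1 promoter at -51 to -44 and in the Areg promoter at -61 to -54 from the start, and it occurs in 1.79% of all 32851 promoters in the table. The only other match was an ETS site in the Egfr promoter at -120 to -114, a motif present in 8.86% of all promoters. AP-1 sites (7.81% of all promoters), EGR sites (0.612%) and CArG boxes (1.63%) had no match in these windows. A match describes the letters and is not evidence of binding. The promoters of Errfi1 (chr4:150854820-150855119, plus strand) and Areg (chr5:91139349-91139648, plus strand) are printed because they share the element, with its letters in capitals, and that of Tgfa (chr6:86194972-86195271, plus strand) because it passed with the block and held no match.
Errfi1: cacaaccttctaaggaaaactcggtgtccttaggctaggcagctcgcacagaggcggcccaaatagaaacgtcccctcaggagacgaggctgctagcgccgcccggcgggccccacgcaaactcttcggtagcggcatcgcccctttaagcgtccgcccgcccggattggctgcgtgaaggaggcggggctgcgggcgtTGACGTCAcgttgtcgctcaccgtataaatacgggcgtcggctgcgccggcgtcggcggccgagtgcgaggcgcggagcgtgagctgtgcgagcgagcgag
Areg: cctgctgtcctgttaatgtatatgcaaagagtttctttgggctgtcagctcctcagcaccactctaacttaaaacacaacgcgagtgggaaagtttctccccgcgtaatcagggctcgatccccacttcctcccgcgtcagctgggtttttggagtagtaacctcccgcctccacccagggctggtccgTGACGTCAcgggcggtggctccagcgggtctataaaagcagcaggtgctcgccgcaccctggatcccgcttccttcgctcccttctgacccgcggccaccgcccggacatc
Tgfa: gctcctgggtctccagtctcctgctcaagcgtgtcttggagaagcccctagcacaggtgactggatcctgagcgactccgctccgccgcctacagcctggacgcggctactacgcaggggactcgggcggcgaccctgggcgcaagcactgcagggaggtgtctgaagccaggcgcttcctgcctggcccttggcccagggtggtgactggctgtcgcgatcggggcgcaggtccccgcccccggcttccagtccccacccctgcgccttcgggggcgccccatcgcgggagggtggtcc
Of the genes with TGACGTCA in the printed promoter, Errfi1 passed with the block and Areg did not, and their log2 fold changes were 0.96 and 0.88.

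Ratios between genes of the same sample do not depend on how libraries were scaled. Erbb2 was taken as the denominator, as the most even of the 10 genes, a choice made after its values were seen. The ratio of Ereg to Erbb2 was 0.429, 0.396 and 0.472 in AdGFP and 1.0, 0.829 and 0.848 in AdCre replicates 1 to 3. That of Tgfa to Erbb2 was 0.426, 0.338 and 0.338 in AdGFP and 0.571, 0.559 and 0.511 in AdCre. That of Errfi1 to Erbb2 was between 2.14 and 3.15 in AdGFP and between 3.74 and 5.99 in AdCre. All 3 ratios were higher in AdCre without overlap. These genes and Erbb4 were taken because their levels did not overlap, so the ratios restate that separation on a scale free of library size and are no further evidence of it. The ratio of Erbb4 to Erbb2 was 0.183, 0.207 and 0.219 in AdGFP and 0.0677, 0.146 and 0.0791 in AdCre, lower without overlap. Errfi1 exceeded Egfr by 2.27-fold to 8.72-fold in AdGFP and by 5.96-fold to 13.5-fold in AdCre, and these ranges overlapped. Ereg also exceeded Tgfa by more in AdCre (1.48-fold to 1.76-fold) than in AdGFP (1.01-fold to 1.4-fold), and the ratio of Ereg to Egfr was 0.5 to 1.19 in AdGFP and 1.35 to 2.26 in AdCre. In 3 against 3 samples, groups that do not overlap always give an exact two-sided permutation p of 0.1, the smallest possible, so this test cannot pass for any single gene.

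**Figure D4:**
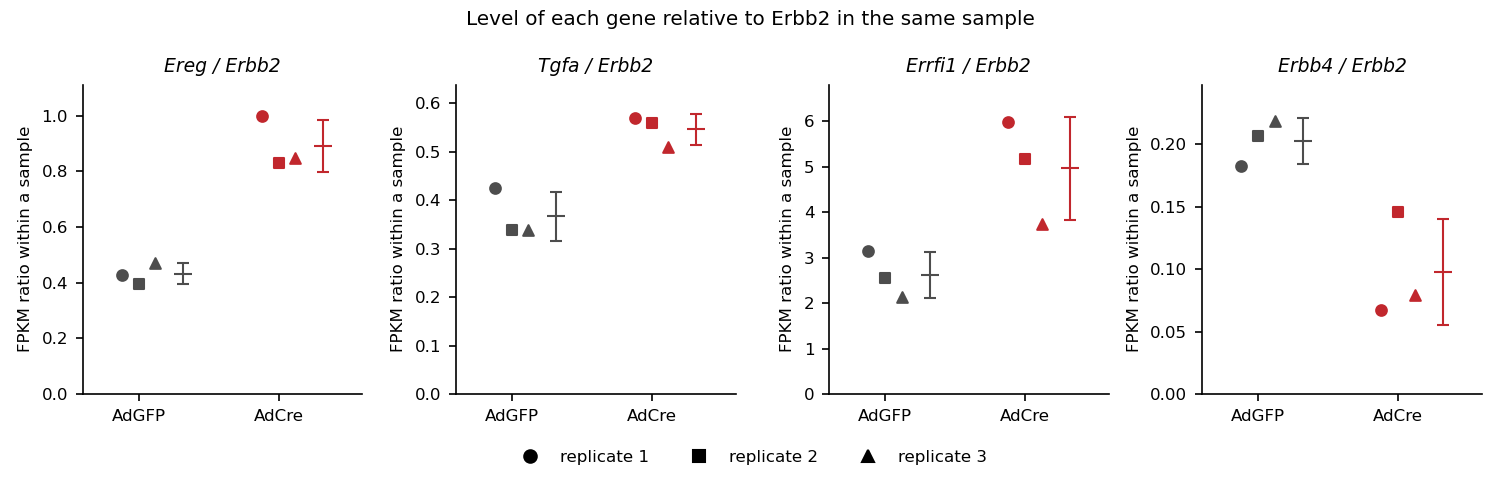
Ratio of the FPKM of Ereg, Tgfa, Errfi1 and Erbb4 to that of Erbb2 in the same sample (vertical axes, linear from 0) for the 3 AdGFP (grey) and 3 AdCre (red) samples; symbols give the replicate number and bars the mean ± SD. The groups do not overlap in any panel: the first 3 ratios are higher in AdCre, and Erbb4 over Erbb2 is lower.

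The other ligands of the family were rare, and the remaining receptor, Erbb3, passed the filter on low genes. Egf, the ligand that gives the family its name, was at 0.535, 0.423 and 0.345 FPKM in AdGFP and at 0.114, 0.141 and 0.08 FPKM in AdCre, on 96 to 149 and 25 to 41 reads. The groups lay far apart, the mean in AdCre being 0.257 times that in AdGFP. Without a filter on low genes its log2 fold change came to -1.33 ± 0.33 (SE) (limma adjusted p 0.419, and 0.171 with the block). Antisense exons of other genes cover 9.82% of its exon bases. Erbb3, a receptor of neuregulins with little kinase activity of its own, was at 1.16, 1.92 and 1.65 FPKM in AdGFP and at 1.06, 1.86 and 1.19 FPKM in AdCre (log2 fold change -0.20, limma adjusted p 0.888). Of 4 tested markers of Schwann cells, a type that uses ERBB3, 2 had a higher mean in AdCre (Sox10, log2 fold change 1.14, and Ngfr, 1.11) and 2 a lower one (S100b, -0.71, and Erbb3 itself). Of these 4, 0 passed without the block (2 at an unadjusted p under 0.05 in limma) and 1 passed with it, as higher (2.64% of all genes). Without overlap of the groups 2 were higher and 1 was lower, against 7.36% and 8.02% of all genes. Nrg2, Nrg3 and Nrg4 had at most 37, 2 and 18 reads in any sample.

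Genes of the machinery around ligands and receptors were read against the 2.64% of all genes that passed with the block as higher and the 3.51% that passed as lower. Of 15 genes that act in ligand release (proteases, rhomboid relatives, their cofactors and inhibitors), 10 had a higher and 5 a lower mean, with a median log2 fold change of 0.11. None passed without the block (2 at an unadjusted p under 0.05) and 2 passed with it. Adam12, a metalloprotease that can cut HB-EGF, went from 10.6 ± 1.61 to 14.7 ± 2.22 FPKM (log2 fold change 0.46, limma adjusted p 0.0319 with the block and 0.422 without). Adam8, a metalloprotease of myeloid cells, went from 9.01 ± 3.7 to 12.2 ± 5.51 FPKM (0.41, limma adjusted p 0.0498 with the block and 0.847 without). All 9 tested macrophage markers also had a higher mean in AdCre, with a median of 0.51 and 2 blocked calls. Without the block 0 of them passed and 0 had an unadjusted p under 0.05 in limma, and the groups overlapped for each. The part of macrophages in the level of Adam8 was not tested. None of the 15 passed as lower.

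Of 25 genes of receptor turnover, 20 were tested, with 10 higher, 10 lower and a median log2 fold change of 0.02. The only one to pass, with the block, was Sh3kbp1, whose product CIN85 links the ubiquitin ligase CBL to receptor endocytosis. Sh3kbp1 was at 12.3, 11.2 and 9.38 FPKM in AdGFP and at 5.39, 6.71 and 5.06 FPKM in AdCre. The groups did not overlap, and its log2 fold change came to -0.93 ± 0.16 (SE) (limma adjusted p 0.161, and 0.0187 with the block). Of 23 receptor adaptors and effectors, 9 were higher and 14 lower, with a median of -0.05. Gab1, a docking protein that links receptors to SHP2 and PI3K, was the only one to pass with the block, at 13.1, 15.2 and 16.7 FPKM in AdGFP and 9.17, 12.3 and 10.0 FPKM in AdCre (log2 fold change -0.51, limma adjusted p 0.0485, and 0.341 without). No gene of the turnover and adaptor lists passed without the block, and 3 and 1 of them had an unadjusted p under 0.05.

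Markers of further cell types were read beside these levels, where 6842 of all genes tested had a higher and 6952 a lower mean, and 2.64% and 3.51% passed with the block. Without the block 0 genes of the endothelial, epicardial and fibroblast lists passed in limma, and 3, 4 and 1 of them had an unadjusted p under 0.05. Endothelial markers, of a type that makes neuregulin, had a higher mean for 10 of 12 genes (median log2 fold change 0.34, 4 blocked calls), and their summed level was between 104 and 157 FPKM in AdGFP and between 148 and 217 FPKM in AdCre. Epicardial markers were split, with 4 of 11 tested genes higher and 7 lower and 3 blocked calls in each direction. Krt8 (log2 fold change 1.48) and Krt18 (0.88) had the most positive values, and Gpm6a (-1.82), Lrrn4 (-1.5) and Msln (-1.08) the most negative. The sum over the 12 epicardial markers was between 297 and 507 FPKM in AdGFP and between 416 and 546 FPKM in AdCre. Fibroblast markers had 4 of 11 genes higher and 7 lower (median -0.24, 1 blocked call as higher and 3 as lower) and mural markers 6 of 10 higher (median 0.09). Which cells of the cultures carried the transcripts of Ereg, Tgfa and Errfi1 was not measured, and the part of cell makeup in their levels was not tested.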

How the data were processed

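Poly-T selected RNA of 6 cultures was sequenced, and the authors deposited FPKM values, 1 column per sample without pooling. The submitters' processing notes name fastp, STAR 2.5, HTSeq 0.6.1 and mm10. Annotation, use of strand and the study's own test are not given in the sources used here. Of 54532 gene IDs, 54495 matched GENCODE M21 (GRCm38), which gave symbols, lengths and positions. FPKM times exon length gave whole reads (within 0.01) for 96.8% of genes with a value above 0. Other genes, Hbegf among them, were rounded. Recovered totals were between 25.28 and 26.55 M reads in AdGFP and between 25.98 and 32.43 M in AdCre. The denominators behind the FPKM were 0.931 to 0.9751 times these totals in AdGFP and 0.9875 to 1.0255 times in AdCre, without overlap. Within each group no library was a copy of another (chi-square per degree of freedom between replicates of 35.78 or more).

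Values were tested as log2(FPKM + 0.1), a scale that understates changes of low genes, for 13794 genes whose mean reached 0.5 FPKM (limma 3.58.1 in R 4.3.3, lmFit and eBayes with a trend, Benjamini-Hochberg over all genes). Genes were called at an adjusted p under 0.05. Deviations from group means correlated by 0.568, 0.268 and 0.506 between same-numbered samples and by 0.036 or less otherwise. Deviations sum to 0 within each group of 3, so the latter values follow in part from the former. The number was taken as a pairing, on the values alone, and fitted as a block. The fit was tested on simulated data. The members and lists were chosen with earlier results of these data known. Genes named are the 10 members, the other EGF ligands and Erbb3, members of 3 pathway lists called in either fit, the 3 genes most correlated with each tested member whose groups did not overlap, and defining markers listed at 0; single markers and Gm19610 were added after their values were seen. No 50-base word of the members' transcripts occurs in other genes, except 0.151% of those of Egfr. Alternatives were pseudocounts, filters, scalings, voom on recovered reads, no trend, the block and left-out samples; library size from recovered reads was added after the data were seen. Python 3.11.15 and scipy 1.17.1 were used.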

Additional observations from a re-analysis of the deposited data

How the results depend on the processing

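The number of genes called was 1 as deposited. It was 3 with a pseudocount of 1, 4 without a trend, and 0 without a filter (2168 at an unadjusted p under 0.05) or with limma voom (1449). Leaving out 1 sample gave between 0 and 2. With the replicate block it was 848 (364 higher, 484 lower), 875 with TPM (538 higher, 337 lower), 784 with a pseudocount of 1, 1703 with voom, 702 with library size from recovered reads (384 higher, 318 lower), 17 without a filter, and 0 without a trend (3122 at an unadjusted p under 0.05). Leaving out a pair from it gave between 1 (pair 3) and 772 (pair 1), with 149 without pair 2. Of the EGF genes, 0 were called in any of the fits without the block and 3 with it. The latter became 3 with TPM, a pseudocount of 1 or recovered library sizes, 4 with voom (Erbb4 added), and between 0 (pair 3) and 4 (pair 1, Hbegf added) when a pair was left out. No filter or no trend under the block gave 0, with 5 at an unadjusted p under 0.05 in each.

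Ereg, Tgfa, Errfi1, Areg and Erbb4 kept their direction in all fits run. Ereg ranged from 0.91 to 1.18, Tgfa from 0.50 to 0.71, Errfi1 from 0.76 to 1.14, Areg from 0.40 to 1.19 and Erbb4 from -1.25 to -0.59. Their limma adjusted p-values over the fits without the block ranged from 0.103 to 0.523, 0.194 to 0.791, 0.136 to 0.742, 0.346 to 0.986 and 0.171 to 0.823. Genes near 0 changed sign. Egfr was at 0.08 with TPM with or without the block, 0.05 with voom or recovered library sizes, 0.01 with blocked voom, 0.05 with blocked recovered library sizes and 0.00 with median centring. It ranged from -0.31 to 0.41 when 1 sample, and from -0.26 to 0.26 when a pair, was left out. Nrg1 was at 0.07 with TPM with or without the block, 0.02 with voom, 0.05 with blocked voom, and 0.04 with recovered library sizes in both fits. It ranged from -0.45 to 0.48 over left-out samples and reached 0.05 and 0.01 without pairs 1 and 3. Hbegf ranged from -0.14 (without AdGFP replicate 3) to 0.70 (without AdGFP replicate 1). Erbb2 ranged from -0.03 (without pair 1) to 0.13 (TPM) over all fits, and from -0.01 (without AdCre replicate 1) to 0.1 when 1 sample was left out. The cause was not tested. Depth limits Areg, Btc and Epgn, where few reads carry a value.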

Other observations

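The genes most correlated over the 6 samples, in log2(FPKM + 0.1), with each tested gene whose groups did not overlap were listed as a description. They were picked from 13794 genes for high r (Pearson). For Ereg they were Itpr3 (r = 0.9966), Gpr161 (0.9964) and Thy1 (0.9948), the first being a calcium release channel of the endoplasmic reticulum. For Tgfa they were Ttc9 (0.9974), Arhgef16 (0.997) and Nptx2 (0.9956). Nptx2, a secreted neuronal pentraxin, went from a mean of 0.27 to 2.01 FPKM. For Errfi1 they were Rom1 (0.9939), Plcxd1 (0.9926) and Pfkfb4 (0.992). Pfkfb4, a regulatory enzyme of glycolysis, went from a mean of 1.4 to 2.9 FPKM. For Erbb4 they were Crybg3 (0.9931), Timm21 (0.9929) and Ctnna3 (0.9923). Ctnna3, an alpha-catenin of the cardiomyocyte intercalated disc, had means of 1.6 in AdGFP and 0.452 FPKM in AdCre, a difference of -1.72 on the log2 scale beside -1.0 for Erbb4.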
